A study of Mus musculus with 6 samples.

Results

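Cytosolic nucleic acid sensors were followed in mouse CD8+ T cells through 10 genes of this group: Ifih1, Ddx58, Dhx58, Mavs, Zbp1, Aim2, Tmem173 (now Sting1), Mb21d1 (now Cgas), Ifi202b and Ifi203. Of these, 9 had a probe set annotated to 1 gene symbol and are described below, among 22180 genes tested. The only probe set that names Ifi203 is shared with other loci, so this gene was not measured.

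RNA came from 6 arrays, 3 of cells labelled wild type and 3 of cells labelled Dot1l knockout, all on the C57BL/6 background. Dot1l encodes the methyltransferase of lysine 79 on histone H3. For the knockout, mice homozygous for a floxed Dot1l allele had been bred to CD4-Cre mice, in which Cre is driven by the Cd4 promoter, so deletion is not limited to the CD8 lineage. CD8+ T cells were taken fresh from spleen and peripheral lymph nodes with a magnetic kit and received no treatment. The labels do not say whether the wild type mice carried Cre or floxed alleles, give no age, and do not tie arrays to animals. The p-values below therefore cover the spread of these 3 arrays a group, which may be technical.

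The sensors fall into pathways that meet downstream. RIG-I (Ddx58) and MDA5 (Ifih1) are helicases that bind double-stranded RNA and signal through MAVS on mitochondria, whereas LGP2 (Dhx58) binds RNA but lacks the signalling domain. cGAS binds DNA and makes a cyclic dinucleotide that activates STING, and both MAVS and STING lead to the kinase TBK1, the factor IRF3 and type I interferon. ZBP1 senses Z-form nucleic acids and can engage the death kinase RIPK3. AIM2 binds DNA and builds an inflammasome with the adaptor ASC, and p202 (Ifi202b), a relative without a pyrin domain, is known to antagonise it. Many of these genes are themselves induced by interferon.

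Values are deposited log2 expression values, and differences are knockout-labelled minus wild type with a standard error (SE) from limma. A gene passed, and is said to have risen or fallen, at a Benjamini-Hochberg adjusted p under 0.05 over all 22180 genes. A guide to background was set at 3.83, the 95th percentile of the mean levels of odorant and pheromone (Olfr and Vmnr) receptor genes. T cell markers were bright in both groups, with Cd3e at 11.83 and 11.74 and Cd8a at 11.12 and 10.95 in wild type and knockout-labelled arrays, while Cd4 read 3.79 and 3.86, close to the guide. Dot1l itself did not pass (7.20 ± 0.25 in wild type and 7.30 ± 0.04 in knockout-labelled arrays, SD, n = 3 each, adjusted p = 0.765 in limma). Which exon was deleted is not stated in these sources, so this probe set need not check the labels, and every direction below refers to arrays as labelled.

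Most sensor genes rose in knockout-labelled arrays, while the adaptor genes did not pass. Of the 9 measured members 5 rose (Ifih1, Ddx58, Dhx58, Zbp1 and Ifi202b), against 4.30% of all genes tested, and 1 fell (Aim2), against 1.20% of all genes. Cgas and the adaptor genes Mavs and Sting1 did not pass. In 6 members every knockout-labelled array lay above every wild type array, against 13.7% of all genes, and in 1 every array lay below, against 9.78%; over both directions the background was 23.5%. The median difference of the 9 members was 0.88, beside -0.012 over all genes.

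**Figure D1:**
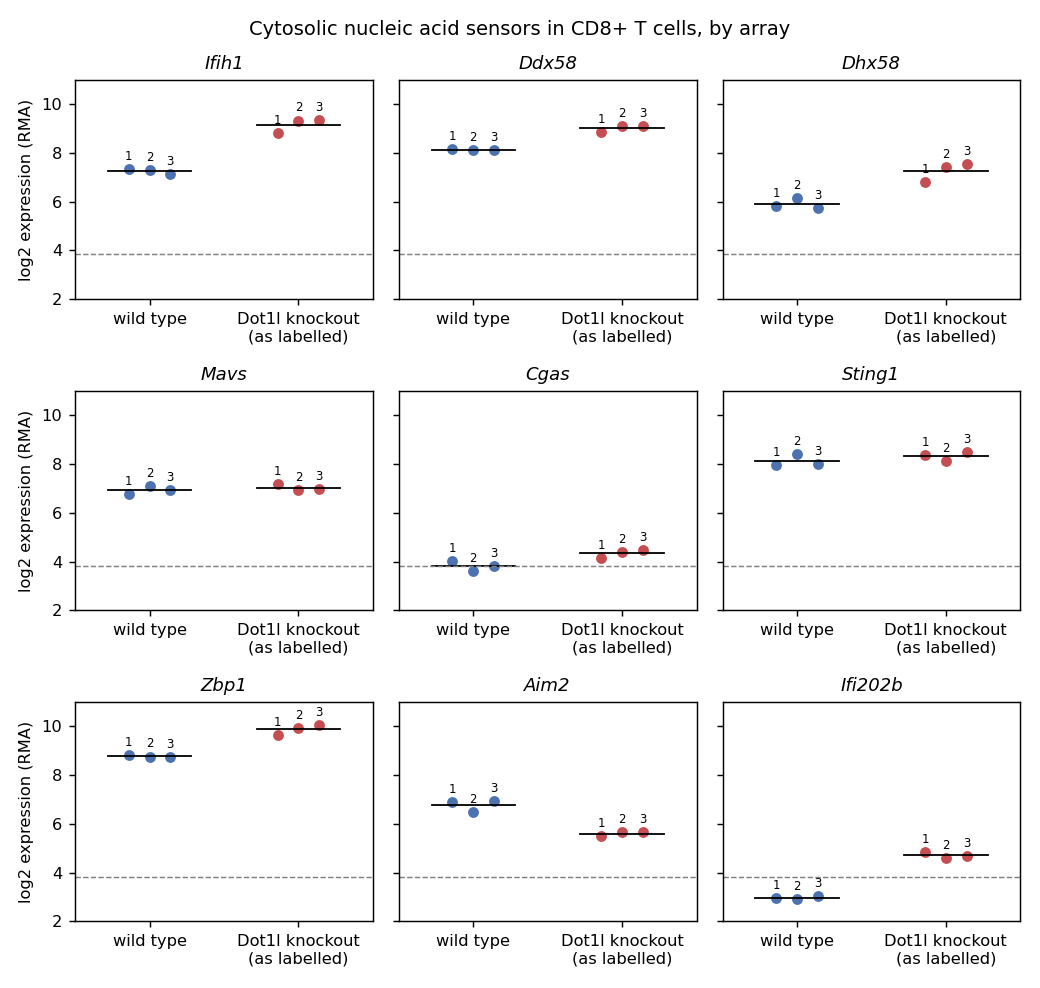
Log2 expression (y axis) of the 9 measured members in each wild type (blue) and knockout-labelled (red) array, with the replicate number beside each point, the group mean as a bar and the background guide of 3.83 as a dashed line. The groups are apart in every panel except Mavs and Sting1, Aim2 is the panel in which the red points are lower, and the wild type points of Ifi202b lie under the dashed line.

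Among the RNA receptors Ifih1 differed most. Ifih1, which encodes MDA5, read 7.34, 7.29 and 7.15 in wild type arrays and 8.81, 9.33 and 9.34 in knockout-labelled arrays. The groups were 1.47 apart at their nearest values, while the wild type arrays spanned 0.19. The difference was 1.90 (SE 0.15, 95% interval 1.56 to 2.24, limma adjusted p = 0.000134), a 3.73-fold higher level and the 39th largest rise among all genes.

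Dhx58, which encodes LGP2, read 5.81, 6.14 and 5.72 in wild type arrays and 6.80, 7.44 and 7.54 in knockout-labelled arrays. No values overlapped, although both groups were wider than for Ifih1, with an SD of 0.22 and 0.40. It rose by 1.37 (SE 0.20, interval 0.93 to 1.81, limma adjusted p = 0.00356), or 2.59-fold. Ddx58, which encodes RIG-I, read 8.16, 8.13 and 8.11 in wild type arrays and 8.84, 9.09 and 9.11 in knockout-labelled arrays. Wild type arrays of this gene lay within 0.05 of each other, and the rise of 0.88 (SE 0.11, interval 0.63 to 1.13, limma adjusted p = 0.00166) corresponds to 1.84-fold.

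In the fit without a covariate Mavs, the adaptor that all signalling RNA helicases of this family need, did not follow its receptors. Its wild type values were 6.76, 7.10 and 6.92 and its knockout-labelled values 7.17, 6.94 and 6.99, which overlap. The difference of 0.11 (SE 0.12, limma adjusted p = 0.713) has an interval of -0.17 to 0.38, so a change as large as that of any of the 3 receptor genes lies outside it. No test of the receptors against the adaptor was made.

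For members with a RefSeq promoter window (GRCm38.p6, 250 bases before to 50 after the start, start counted as +1), the core of the interferon-stimulated response element (GAAA repeated after any 2 bases) and the gamma-activated site, TTCNNNGAA, were searched on both strands. Windows were found for 7 of the 10 members, not for Dhx58, Zbp1 and Sting1. The first motif was in the windows of Ifih1 and Ddx58 among the 6 measured members with a window, and in 3.44% of all 32851 windows. It was also in 1 of the 2 windows of Ifi203, which has no expression value here. The second was in the window of Ifi202b alone and in 8.30% of all windows, and no match of one overlapped a match of the other. A match describes letters and is not evidence of binding. The stretches that hold the first motif are shown because both genes rose, on the gene's strand with the motif in capitals. They are the bases from +25 to +50 of Ifih1 (chr2:62646206-62646231, minus strand) and from -6 to +20 of Ddx58 (chr4:40239806-40239831, minus strand), where the motif runs on the other strand.
Ifih1: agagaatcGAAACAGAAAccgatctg
Ddx58: tgaggcagTTTCGATTTCctatggcc

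In the branch of cGAS and STING no member passed. Cgas, the DNA-binding enzyme, read 4.002, 3.60 and 3.83 in wild type arrays and 4.15, 4.38 and 4.48 in knockout-labelled arrays. All knockout-labelled values were higher, but 2 of the 3 wild type values lay below the background guide. The difference was 0.53 (SE 0.14, interval 0.22 to 0.83, limma adjusted p = 0.0581). This p lay close to the threshold, and was 0.0442 without wild type replicate 1 and between 0.0652 and 0.216 without any one of the others.

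Sting1, the receptor of the cyclic dinucleotide, read 7.96, 8.42 and 8.002 in wild type arrays and 8.38, 8.12 and 8.48 in knockout-labelled arrays. Its groups overlapped, with a difference of 0.20 (SE 0.15, interval -0.14 to 0.54, limma adjusted p = 0.555). As for Mavs, the arrays within each group spanned a wider range than the difference between group means.

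Zbp1, the sensor of Z-form nucleic acids, read 8.84, 8.76 and 8.72 in wild type arrays and 9.66, 9.93 and 10.06 in knockout-labelled arrays. The lowest knockout-labelled value was 0.82 above the highest wild type value. Zbp1 rose by 1.10 (SE 0.12, interval 0.83 to 1.38, limma adjusted p = 0.000877), or 2.15-fold.

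Aim2 and Ifi202b, an inflammasome sensor and its known antagonist from the same PYHIN family, moved in opposite directions. Aim2 read 6.89, 6.48 and 6.93 in wild type arrays and 5.51, 5.65 and 5.65 in knockout-labelled arrays. All 3 knockout-labelled arrays were lower, by 0.82 at the nearest values. Aim2 fell by 1.16 on the log2 scale (a difference of -1.16, SE 0.14, interval -1.47 to -0.86, limma adjusted p = 0.00128), a 2.24-fold lower level and the 35th largest fall among all genes. Ifi202b read 2.95, 2.90 and 3.04 in wild type arrays and 4.83, 4.59 and 4.70 in knockout-labelled arrays. It rose by 1.74 (SE 0.11, interval 1.502 to 1.983, limma adjusted p = 3.74e-05). Since all 3 wild type values lay under the guide of 3.83, how large this rise was is uncertain. PYHIN genes are close relatives, and cross-hybridisation between their probes was not tested.

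The bases before the starts of these genes are shown because they moved oppositely and neither holds the response element core. They cover -250 to -1 of Aim2 (chr1:173420354-173420603, plus strand, GRCm38.p6) and of Ifi202b (chr1:173982845-173983094, minus strand), with the TTCNNNGAA match of Ifi202b, at -148 to -140, in capitals.
Aim2: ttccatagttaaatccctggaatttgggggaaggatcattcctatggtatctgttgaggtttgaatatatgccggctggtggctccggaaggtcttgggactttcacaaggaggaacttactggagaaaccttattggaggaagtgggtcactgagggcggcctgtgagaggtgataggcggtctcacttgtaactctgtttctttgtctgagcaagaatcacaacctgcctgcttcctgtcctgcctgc
Ifi202b: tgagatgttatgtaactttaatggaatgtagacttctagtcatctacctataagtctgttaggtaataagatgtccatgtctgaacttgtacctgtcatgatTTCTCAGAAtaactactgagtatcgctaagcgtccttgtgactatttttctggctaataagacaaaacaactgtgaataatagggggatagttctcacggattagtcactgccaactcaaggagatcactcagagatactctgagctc

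**Figure D2:**
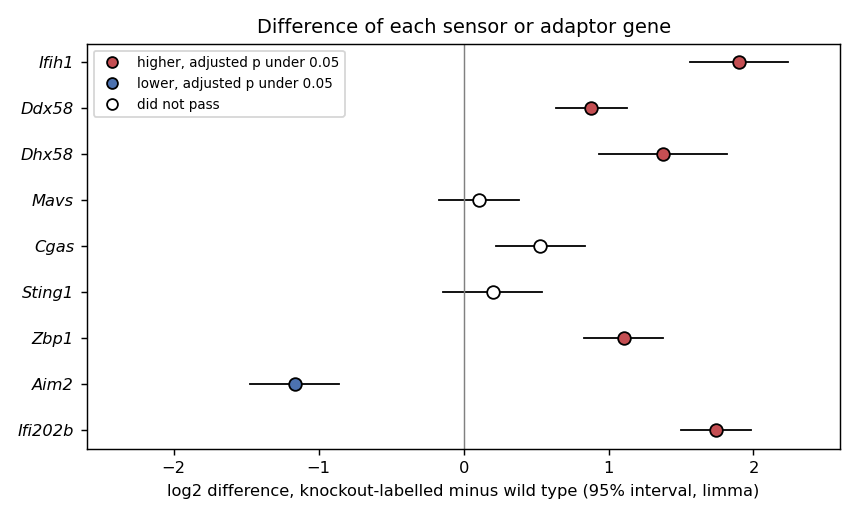
Log2 difference (x axis) of each measured member, knockout-labelled minus wild type, with its 95% interval from limma; red points passed as higher, the blue point passed as lower and open points did not pass. Intervals of Mavs and Sting1 cross 0, and Aim2 at -1.16 is the one member on the left of 0.

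Replicates differed in how far the members moved. In 4 of the 5 genes that rose, knockout replicate 1 was the lowest of the knockout-labelled arrays, and in all 5 the SD of the knockout-labelled group was the larger one. For these counts no share of all genes was taken. Without that array the differences were 2.07 for Ifih1, 0.97 for Ddx58, 1.60 for Dhx58 and 1.22 for Zbp1. Each of the 6 members that passed also passed in all 6 fits with 1 array left out.

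A block of 5333 probe sets without a gene name moved with these results. The block was taken by identifier order: of 16010 unnamed probe sets, it holds those numbered before the first named probe set. Its array medians were 3.50 to 3.80 in wild type and 4.12 to 4.34 in knockout-labelled arrays, a median difference of 0.43, and knockout replicate 1 was the lowest of its group here too. With the block median of each array as a covariate, chosen after the data were seen, 0 of 9 members passed in limma and 5 of 22180 genes did. An unadjusted p under 0.05 was seen for Ifih1, Zbp1, Aim2, Ifi202b, Mavs and Sting1 in that fit, and not for Ddx58, Dhx58 and Cgas. The differences were then 1.36 for Ifih1 (SE 0.38, adjusted p = 0.225), 0.59 for Ddx58, 1.15 for Dhx58, 0.72 for Zbp1, -1.86 for Aim2 (SE 0.28, adjusted p = 0.0924) and 1.87 for Ifi202b (SE 0.29, adjusted p = 0.093). Mavs (0.73) and Sting1 (0.94) read higher in that fit than without the covariate, and Cgas (-0.22) turned below 0. Both adaptor genes then read above Ddx58, though below Ifih1 and Dhx58, so the contrast of receptors and adaptors depends on the fit. The block's medians do not overlap between the groups, so the covariate and the genotype label cannot be fully told apart. Of the 114 measured genes of the lists given next, 22 passed in limma without the covariate, beside 5.50% of all genes, and 0 with it. With it, 18 had an unadjusted p under 0.05, a cut at which no share of all genes was taken.

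**Figure D3:**
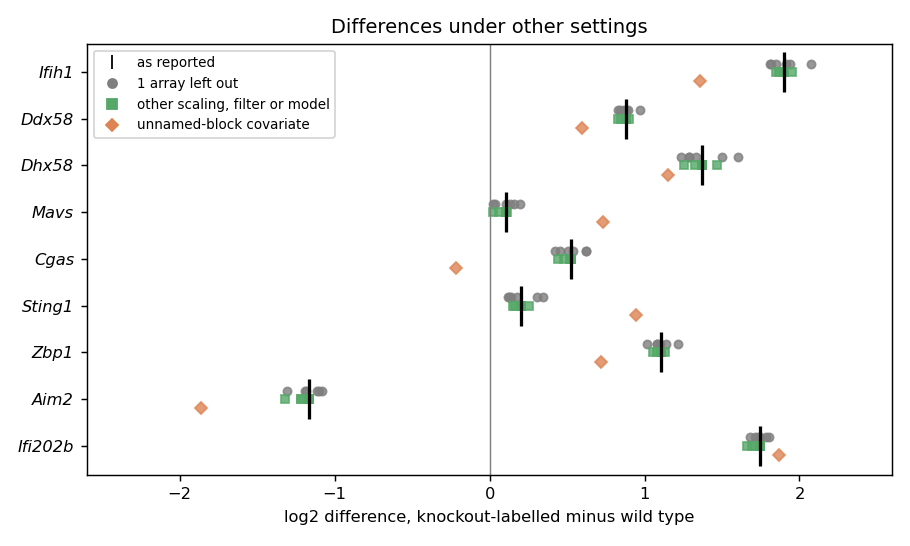
Log2 difference of each measured member (x axis) as reported (black bar), with 1 array left out (grey circles), under another scaling, filter or model (green squares) and with the unnamed-block covariate (orange diamonds). Grey and green points stay near the bar in every row, and the diamonds move from 1.90 to 1.36 for Ifih1, from 0.11 to 0.73 for Mavs and across 0 for Cgas.

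Of 19 measured genes that regulate the RNA receptors, 2 rose, 1 fell and 16 did not pass, where 4.30% of all genes were called higher and 1.20% lower. Their median difference was 0.046. Trim25, a ubiquitin ligase that activates RIG-I, rose from 8.27 ± 0.05 to 8.84 ± 0.12 (0.57, SE 0.10, limma adjusted p = 0.0125), and Mfn1, a mitochondrial fusion GTPase that binds MAVS, rose by 0.46 (adjusted p = 0.0429). Smurf1, a ubiquitin ligase reported to promote MAVS degradation, fell by 0.58 on the log2 scale (limma adjusted p = 0.0169). Trim25 missed the threshold when knockout replicate 2 or 3 was dropped (adjusted p = 0.0635 and 0.0526). Smurf1 went to 0.0512 and 0.0663 when wild type replicate 1 or 3 was dropped, and to 0.0812 and 0.065 for knockout replicates 2 and 3. Of the fits that dropped 1 array, Mfn1 held only without wild type replicate 2, with p up to 0.16 in the others, and missed it after quantile normalization (0.149) or median centring (0.0943).

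Shared kinases, adaptors and factors below MAVS and STING had a median difference of 0.033, with 2 of 17 measured genes higher and 1 lower, beside the same 4.30% and 1.20% over all genes. At an unadjusted p under 0.05 there were 5 higher and 3 lower, a cut at which no share of all genes was taken. Irf7, an interferon-induced factor that strengthens the interferon response, rose by 1.99 (SE 0.12, limma adjusted p = 3.74e-05), with all knockout-labelled values at or above 9.47 and all wild type values at or below 7.79. Traf5, an adaptor of TNF receptor signalling, fell from 6.66 ± 0.22 to 5.74 ± 0.18 (-0.92, SE 0.14, adjusted p = 0.00543 in limma). Tbkbp1, a TBK1-binding adaptor, rose by 0.65 (SE 0.15, limma adjusted p = 0.0383). This last call ended when wild type replicate 1 (0.103) or 3 (0.124) was dropped, when knockout replicate 1 (0.141) or 3 (0.157) was dropped, and after quantile normalization (0.173) or median centring (0.068). Tbk1 itself and Irf3, picked after their values were seen, differed by 0.07 and 0.24 (limma adjusted p = 0.865 and 0.275).

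Regulators of cGAS and STING gave 0 of 22 genes past the test in limma, beside 5.50% of all genes, with a median difference of 0.027. At an unadjusted p under 0.05 there were 4, a cut at which no share of all genes was taken. With trend and robust fitting 1 passed. The smallest p was that of Zdhhc1, a palmitoyltransferase reported to bind STING (0.55, SE 0.15, limma adjusted p = 0.0719). It passed without wild type replicate 1 (0.0258), with genes under the 50th percentile removed (0.043) and with array weights (0.0384), and its difference was 0.35 after quantile normalization (adjusted p = 0.246).

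Enzymes that clear or edit self nucleic acids were measured for 7 of 12 genes, of which 1 passed, beside 5.50% of all genes. Samhd1, a dNTP hydrolase, rose from 10.44 ± 0.07 to 11.08 ± 0.12 (0.64, SE 0.11, limma adjusted p = 0.00753). Trex1, the main cytosolic DNA exonuclease, has a probe set shared with another gene and was not measured.

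Genes of inflammasome and necroptosis signalling, among them partners of AIM2 and ZBP1, went both ways. Of 11 measured, 2 were higher and 1 lower, beside 4.30% and 1.20% of all genes, with a median of 0.048. Mlkl, the pore-forming executioner of necroptosis downstream of RIPK3, rose from 4.93 ± 0.11 to 6.15 ± 0.38 (1.23, SE 0.17, limma adjusted p = 0.00355). Its wild type values were 4.80, 4.96 and 5.02 and its knockout-labelled values 5.78, 6.53 and 6.14, so the groups were apart as for Zbp1. Ripk3, which links the products of Zbp1 and Mlkl, differed by -0.10 (limma adjusted p = 0.677), and Pycard, which encodes ASC, by 0.048 (limma adjusted p = 0.895). Casp1, the caspase of the AIM2 inflammasome, differed by 0.73 (SE 0.21, limma adjusted p = 0.092) with overlapping groups. Ripk3, Pycard and Casp1 were picked after their values were seen. Casp4, the mouse caspase-11 gene, rose by 0.55 (limma adjusted p = 0.0255), and Il1b fell by 0.83 on the log2 scale (limma adjusted p = 0.0124). The call of Casp4 ended when wild type replicate 1 (0.057) or 3 (0.0942) was dropped, when knockout replicate 1 (0.0849) or 3 (0.119) was dropped, and after quantile normalization (0.147) or median centring (0.0508). That of Il1b ended without wild type replicate 3 or knockout replicate 3 (0.0508 and 0.0569), and its knockout-labelled mean of 3.08 lay below the background guide.

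Other PYHIN genes had a median difference of 0.60, and 1 of 8 measured passed, beside 5.50% of all genes. Ifi214 rose from 5.73 ± 0.15 to 6.48 ± 0.14 (0.75, SE 0.12, limma adjusted p = 0.00679). At an unadjusted p under 0.05 there were 6 higher and 1 lower, a count for which no share of all genes was taken. With trend and robust fitting there were 4 higher and 0 lower at that p. Of the 8 genes, 1 had a mean level below the background guide. Several varied widely within a group. Ifi204, picked after its values were seen, read 5.44, 2.87 and 4.64 in wild type arrays and 5.67, 6.19 and 6.27 in knockout-labelled arrays (1.73, SE 0.52, limma adjusted p = 0.105). Ifi213, picked in the same way, read 6.30, 5.79 and 6.05 against 6.07, 7.57 and 7.29, where knockout replicate 1 lay among the wild type values.

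Among other enzymes that bind double-stranded RNA in the cytosol, 6 of 8 measured genes rose (4.30% of all genes did) and 0 fell in limma, with a median of 1.47. Those 6 are also all that had an unadjusted p under 0.05. Eif2ak2, the kinase PKR that halts translation, rose from 7.02 ± 0.35 to 8.39 ± 0.33 (1.37, SE 0.20, limma adjusted p = 0.0046). The oligoadenylate synthetase gene Oas3 rose by 1.57 (SE 0.14), its relatives Oasl1 by 1.57 (SE 0.25) and Oasl2 by 2.41 (SE 0.15), with adjusted p up to 0.00596 in limma. With the unnamed-block covariate the differences were 0.042 for Eif2ak2, 0.82 for Oasl1, 1.53 for Oas3 and 1.90 for Oasl2, and none passed.

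Endosomal receptors for nucleic acids, which sample another compartment, were read with their chaperone and adaptors. Of 9 measured genes 3 were higher and 1 lower, beside 4.30% and 1.20% of all genes, with a median of 0.19. The gene that fell encodes an adaptor, and no receptor gene passed as lower. Tlr3, a receptor for double-stranded RNA, rose by 2.17 (SE 0.22, limma adjusted p = 0.000473) from 3.33 ± 0.18, which is below the background guide, to 5.50 ± 0.49. Tlr7, a receptor for single-stranded RNA, rose by 1.51 (SE 0.21), and Unc93b1, the chaperone that carries these receptors to endosomes, by 1.87 (SE 0.13, adjusted p = 5.62e-05). Myd88, the adaptor of Tlr7, fell from 8.76 ± 0.17 to 7.90 ± 0.14 (-0.86, SE 0.12, adjusted p = 0.00394 in limma). Tlr8, Tlr9, Tlr13 and Ticam1, the adaptor of Tlr3, did not pass, with differences of 0.19, -0.26, -0.28 and 0.20 (limma adjusted p between 0.346 and 0.553). These genes were picked after their values were seen, and Tlr8 and Tlr13 lay below the background guide in every array.

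In the type I interferon axis 1 of 13 measured genes passed, a share near the 5.50% of all genes called either way, with a median of 0.055. It was Ifnar2, a receptor chain, which rose by 0.45 (SE 0.11, limma adjusted p = 0.0429). Of the fits that dropped 1 array, that call held only without wild type replicate 2, with p between 0.104 and 0.146 when any other array was dropped. It also ended after quantile normalization (0.0614) or median centring (0.0915). Ifnb1, picked after its values were seen, read 2.30 ± 0.15 and 2.16 ± 0.11, below the background guide in both groups (limma adjusted p = 0.622).

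**Figure D4:**
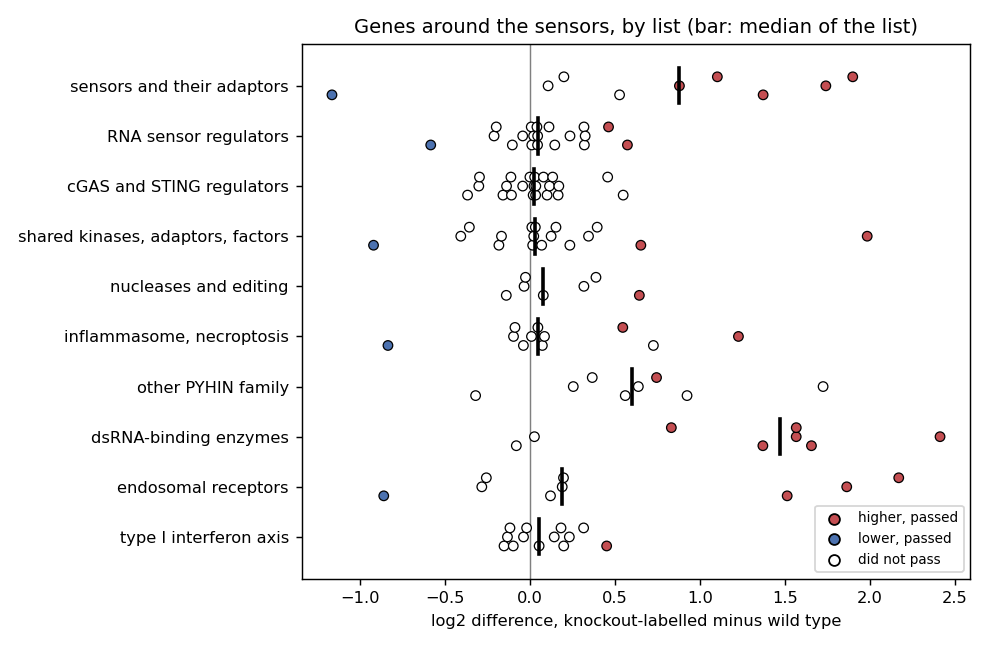
Log2 difference (x axis) of each measured gene in the sensor family and in 9 lists around it, with genes that passed in red (higher) or blue (lower), the others open, and the median of each list as a bar. The bars of the sensors, of the other PYHIN genes and of the enzymes that bind double-stranded RNA stand at 0.88, 0.60 and 1.47, and those of the other lists between 0.027 and 0.19.

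Markers of other cells were read beside these results, where 4.30% of all genes were called higher and 1.20% lower. Of 10 measured B cell markers 3 rose, among them Ms4a1 (from 3.24 to 4.37) and Cd79a (from 5.09 to 5.95), and 1, Ighm, fell (from 10.98 to 10.38), and the mean of the list was 4.67 to 4.90 in wild type and 5.02 to 5.21 in knockout-labelled arrays. The NK marker mean was 3.91 to 4.23 and 4.53 to 4.62, with 1 of 5 higher. This was Tyrobp (0.43, limma adjusted p = 0.0344), while Ncr1, at 4.93 and 5.37, did not pass. Among 11 myeloid markers 1 rose (Itgam) and 1 fell (Mpo), with means of 3.63 to 3.82 and 3.53 to 3.66. Lyz2, at 4.53 and 4.42, and Csf1r, at 4.48 and 4.08, did not pass. Dendritic cell markers gave 1 of 6 higher, Itgax, from 4.38 to 5.52 (means of 4.24 to 4.45 and 4.33 to 4.54). Plasmacytoid dendritic cell markers gave 2 of 7 higher, Tcf4 and Irf8 (means of 4.75 to 4.79 and 4.725 to 4.995). The defining Siglech read 3.28 and 3.26, below the guide. CD4 markers gave 1 of 4 higher (Il2ra) and 1 lower (Cd40lg), with means of 4.23 to 4.30 and 4.16 to 4.19. Their part in the results was not tested, and in bulk RNA fewer cells of a type and less RNA per cell cannot be told apart.

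Across the 6 arrays, the genes outside all lists whose profile was most like the mean of the 9 members, each centred on its own mean, were Sec24d (Pearson r = 0.9991), Nhlrc1 (0.997), Xaf1 (0.9967), Dctn4 (0.9966) and Atp6ap2 (0.9959). These correlations describe 6 arrays in 2 separate groups and mainly follow the group difference. The log2 differences of these genes ranged from 0.18 for Dctn4 to 1.26 for Xaf1.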

How the data were processed

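Per the submitters' processing notes, the authors used RMA and R 3.1.1, and the deposited table holds log2 values; the settings, annotation version and build were not given in the sources used here. RMA is meant to equalise array distributions, and it compresses differences of dim probe sets. Array medians of the deposited values were still 3.69 to 3.78, so their distributions were not identical. Precision is limited by the number of arrays. Of 41345 probe sets, 23521 had 1 gene symbol, 1814 several and 16010 none; a gene was read by its probe set of highest 6-array mean. Genes were tested with limma 3.58.1 in R 4.3.3 (lmFit, eBayes, no covariate), adjusted over 22180 genes.

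The members and lists were chosen with earlier results of these data known. Named genes were the members, Dot1l, defining markers, some other markers that passed and the 5 genes most like the members. For each list around the members, up to 4 genes that passed were named, or else the gene with the smallest p. A few more, marked in the text, were picked after their values were seen. Alternatives were the replicate block, leaving out each array, quantile normalization, median centring, level filters, trend with robust fitting, array weights, other probe set rules and thresholds. List genes without a probe set of their own were not analysed here. Counts at an unadjusted p under 0.05 were not set beside a share of all genes. A planned comparison of member proteins was not made.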

Additional observations from a re-analysis of the deposited data

Results flagged for a closer look

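Outside the gene tests, the block of 5333 unnamed probe sets was higher in knockout-labelled arrays, at a median log2 difference of 0.43.

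A probe set annotated to Ifi203, Ifi203-ps and LOC100862473 together, which cannot be assigned to any of the 3, also read higher. Its values were 8.06, 8.04 and 8.06 in wild type arrays and 8.45, 8.71 and 8.79 in knockout-labelled arrays, a difference of 0.60 (SE 0.12, limma adjusted p = 0.0423 over all 41345 probe sets).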

How the results depend on the processing

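The counts of 5 members higher and 1 lower became 0 and 0 with the unnamed-block covariate, under which 5 genes were called and Cgas (-0.22) and Dot1l (-0.45) changed sign; the cause was not tested. Leaving out 1 array gave 5 to 6 members higher, 1 lower and 615 to 1307 genes called, and Dot1l read -0.0205 (without wild type replicate 2) to 0.23. The 1220 genes called became 751 with p adjusted over all probe sets and 534 at an adjusted p under 0.01. Cgas also passed when genes under the 25th (0.0486) or 50th percentile of level (0.0327) were removed and with array weights (0.0413); the filter at the 50th percentile removed Ifi202b. Each of the 6 members that passed kept its direction and call under the other planned settings. Of genes called, 78.2% were higher in the values as given, 57.1% after quantile normalization and 68.8% after median centring, with the median gene at -0.058 and -0.062. With the replicate block 912 genes passed, with 5 members higher and 1 lower; Mfn1, Tbkbp1, Casp4 and Ifnar2 lost their calls (0.0995, 0.0829, 0.0722 and 0.105). Same-numbered arrays did not deviate together (r = -0.074, -0.157 and -0.0741), so the numbers were not taken to pair samples.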
